A study of Mus musculus with 15 samples.

Results

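Claudins were examined as 10 genes of the 43629 in the count table of a mouse intestinal organoid RNA-seq series: Cldn1, Cldn2, Cldn3, Cldn4, Cldn6, Cldn7, Cldn8, Cldn12, Cldn15 and Cldn23. The genes were chosen by name, as claudins that make up the tight junction strands of epithelia, and were matched to the Ensembl identifiers of the files through their mouse symbols. Organoids are small epithelial cultures grown in Matrigel from crypts, here of the proximal small intestine of C57B6/129 mice. The series compared cultures that carried an engineered Ptprk-Rspo3 rearrangement, or had lost Apc, with wild-type cultures.

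The WT group held 5 libraries, of which 4 carried APC flox/flox (lines 1, 2, 5 and 6) and 1 was a dox-naive culture (NAIVE) that carried the inducible CRISPR system without doxycycline. All 5 were grown in ENR media, which contains the Wnt agonist RSPO1. The Apc group held 4 libraries of Apc delta/delta organoids with the same line names, grown in EN media, which lacks RSPO1. The P-Rspo3 group held 4 libraries (EN15d, EN4d, EN_M and EN_F) of organoids with the Ptprk-Rspo3 inversion made by doxycycline-induced Cas9, also in EN media. In any comparison with WT the genotype and the medium changed together, so their parts cannot be told apart, and the P-Rspo3 libraries also came from other lines than the floxed WT libraries. For the remaining 2 of 15 libraries, LIPO and NAIVE_F, the title and the stated genotype pointed to different groups, and they entered no comparison. No source states that the libraries of a group came from separate animals, so p-values measure the spread between these libraries, which may be partly technical.

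Total counts ran from 28902729 to 35528495 in the 13 grouped libraries. Rspo3 FPKM (fragments counted per transcript length and sequencing depth, made by the authors with Cufflinks) was 6.26 to 11.5 in P-Rspo3 and at most 0.0112 in WT. Apc FPKM was 11.6 to 22.3 in WT and 28.3 to 30.5 in the Apc libraries, and a count over the whole gene does not show whether the deleted exons are gone. The summed FPKM of 6 epithelial markers was 1347 to 1563 in WT, 1556 to 1880 in Apc and 1278 to 1557 in P-Rspo3. Of 5 fibroblast markers, Col1a2, Col3a1 and Dcn had at most 3 counts in every grouped library and Col1a1 at most 15, while Pdgfra had 54 to 73 in Apc (called higher against WT and against P-Rspo3), 3 to 9 in P-Rspo3 and 0 to 4 in WT. Of 4 leukocyte markers, Cd3e and Cd79a had at most 3 counts and Ptprc at most 24, while Itgam had 173 to 335 in WT, 99 to 315 in P-Rspo3 and 43 to 74 in Apc, where it was called lower in both comparisons. The summed FPKM of the fibroblast list was at most 0.311 in any grouped library and that of the leukocyte list at most 1.96, and their part in the claudin differences was not tested.

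Claudins are membrane proteins that polymerise into the strands of the tight junction, the seal near the apical end of the contacts between epithelial cells. Some family members close the paracellular space, while others form pores in it that select for ions and water. In the small intestine, claudin-2 and claudin-15 are cation pores, claudin-2 being best known from crypts, and claudin-15 supplies luminal sodium for the uptake of nutrients. Claudin-3, claudin-4 and claudin-8 are described mostly as sealing claudins, and claudin-7 lies largely on the lateral membrane, where it binds the adhesion protein EpCAM.

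On GRCm38, with GENCODE gene models, 4 of the 10 genes lie on chromosome 5. Cldn4 (ENSMUSG00000047501, chr5:134945119-134946934, - strand) and Cldn3 (ENSMUSG00000070473, chr5:134986214-134987472, + strand) are close neighbours, with 39279 bases between them. Cldn15 (ENSMUSG00000001739) occupies chr5:136966616-136975858 on the + strand and Cldn12 (ENSMUSG00000046798) chr5:5489537-5514958 on the - strand. Cldn2 (ENSMUSG00000047230) lies at chrX:139800828-139811386 (+), Cldn7 (ENSMUSG00000018569) at chr11:69964779-69967885 (+), and Cldn23 (ENSMUSG00000055976) at chr8:35824712-35826559 (-). Cldn8 (ENSMUSG00000050520, chr16:88560828-88563183, -) and Cldn1 (ENSMUSG00000022512, chr16:26356642-26371841, -) share chromosome 16, and Cldn6 (ENSMUSG00000023906) is at chr17:23679249-23682446 (+). Only Cldn3 overlaps another annotated gene, the antisense gene Wbscr25. The strand setting of the counting is not given in the sources used here, so reads of this pair cannot be assigned with certainty.

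RefSeq promoter sequences (GRCm38.p6, from 250 bases before to 50 after the start) matched 8 of the 10 genes with 11 promoters, and Cldn8 and Cldn23 had no entry. The 250 bases before the start are shown, read in the direction of the gene, for the 3 claudins with the largest differences described in the following paragraphs and for Cldn3, the neighbour of Cldn4. They lie at chr5:136967619-136967868 (+ strand) for Cldn15, chrX:139800558-139800807 (+ strand) for Cldn2, chr5:134946935-134947184 (- strand) for Cldn4 and chr5:134985964-134986213 (+ strand) for Cldn3. Capitals mark matches to CACCTG, the E-box letters bound by Snail-type repressors, and the TATA box letters TATAAA in the last 50 bases.
Cldn15: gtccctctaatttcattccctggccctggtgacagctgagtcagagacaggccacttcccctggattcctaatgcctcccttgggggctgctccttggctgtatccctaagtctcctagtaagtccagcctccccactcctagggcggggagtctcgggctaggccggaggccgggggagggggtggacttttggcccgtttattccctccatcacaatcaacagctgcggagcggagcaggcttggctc
Cldn2: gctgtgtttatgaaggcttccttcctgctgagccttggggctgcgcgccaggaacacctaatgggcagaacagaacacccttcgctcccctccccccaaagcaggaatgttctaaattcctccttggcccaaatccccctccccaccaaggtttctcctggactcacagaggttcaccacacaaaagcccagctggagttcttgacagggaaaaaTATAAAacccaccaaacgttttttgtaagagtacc
Cldn4: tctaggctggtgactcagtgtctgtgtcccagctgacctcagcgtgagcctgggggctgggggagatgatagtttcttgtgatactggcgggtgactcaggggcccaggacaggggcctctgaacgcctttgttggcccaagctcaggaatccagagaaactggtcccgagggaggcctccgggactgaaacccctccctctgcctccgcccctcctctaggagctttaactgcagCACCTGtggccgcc
Cldn3: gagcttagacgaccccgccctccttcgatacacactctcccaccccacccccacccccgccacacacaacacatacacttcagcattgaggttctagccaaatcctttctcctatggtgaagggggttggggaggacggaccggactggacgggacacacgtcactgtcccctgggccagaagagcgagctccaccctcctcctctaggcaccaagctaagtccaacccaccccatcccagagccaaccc

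The start used for Cldn15 lies 1253 bases inside the GENCODE gene span. Cldn2 carried TATAAA 35 bases before the start. These letters stood in the same window of 2.63% of 32851 promoters on the gene's own strand, and the motif was picked after the sequences had been seen. Cldn4 carried CACCTG 14 bases before the start and its reverse complement CAGGTG 11 bases after it. Cldn3 had CAGGTG 31 bases after the start, outside the stretch shown. On either strand CACCTG was found in 4 of the 11 claudin promoters (those of Cldn3, Cldn4, Cldn6 and 1 of Cldn7), against 20.2% of all promoters. None of the 11 held CTTTGAT (TCF/LEF, the factors that act with beta-catenin, 3.73% of all promoters), TTTATGG (CDX, 2.75%) or CAAAGTCCA (HNF4, 0.475%) on either strand. No match overlapped another. A match is a description of letters and does not show binding. Only the exact letters given were searched, and variants of a site were not counted. The absence of a match therefore does not show that a promoter lacks a site for that factor.

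In WT organoids Cldn7 was by far the most abundant claudin transcript. Its FPKM was 893, 831, 812, 727 and 783 in lines 1, 2, 5, 6 and NAIVE, which was 60.1% of the summed FPKM of the 10 genes (median of the libraries). Cldn15 followed with a mean FPKM of 218 ± 28.6 (SD, n = 5), and Cldn3 with 172 ± 26.3, and the ranges of these neighbours in the order overlapped. Cldn2 stood at 92.2 ± 11, below Cldn3 in every library. Cldn4 (24.2 ± 9.35) and Cldn12 (22.2 ± 3.73) were not separated beyond their spread, and Cldn23 (9.01 ± 2.13) and Cldn8 (2.46 ± 1.44) closed the list of well-detected genes. Cldn1, the main sealing claudin of skin, and Cldn6, a claudin of embryonic epithelia, had 0 to 8 and 0 to 5 counts per WT library. They did not pass the filter of FPKM of at least 0.1 in 4 libraries in any comparison, so 8 of 10 claudins were tested.

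**Figure D1:**
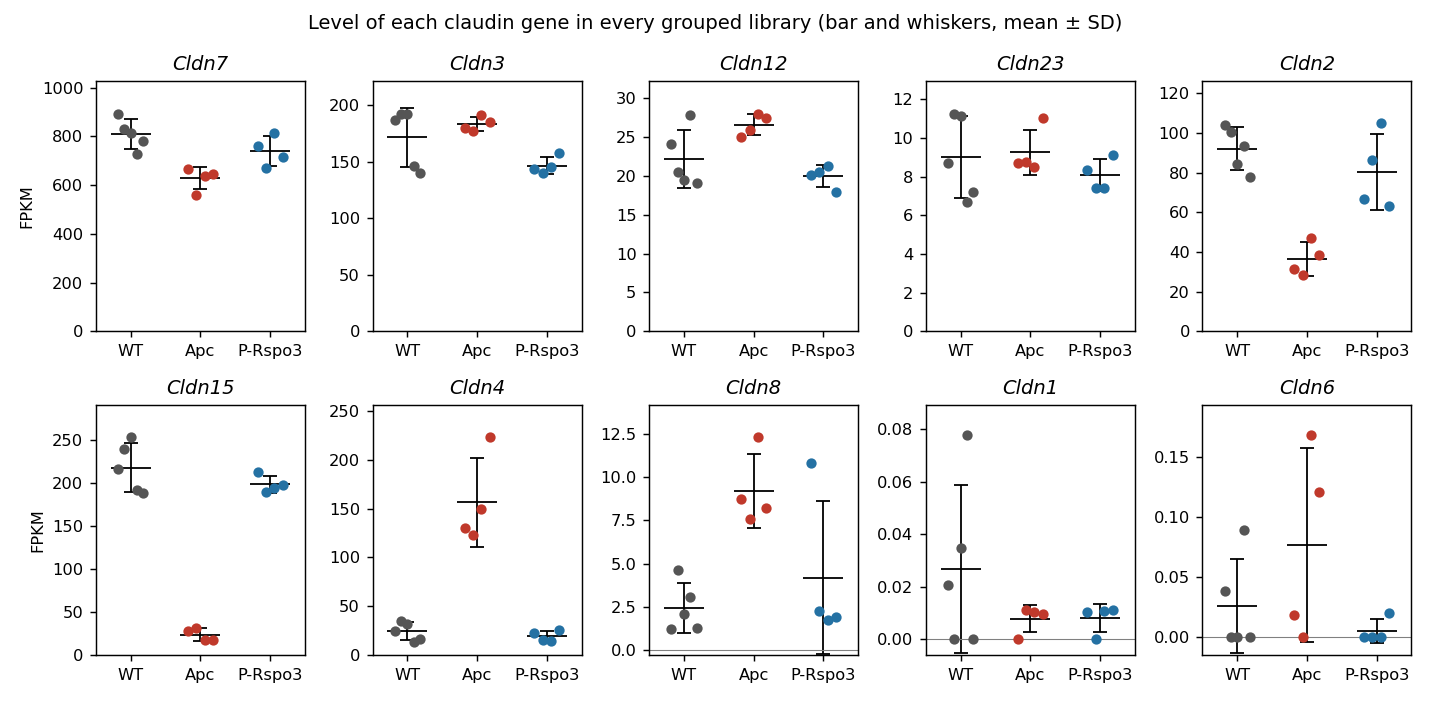
FPKM of each of the 10 claudin genes in every grouped library (points) for 5 WT, 4 Apc and 4 P-Rspo3 libraries, with the mean ± SD as bar and whiskers and a separate y axis for each gene. Cldn15 and Cldn2 are lower and Cldn4 is higher in every Apc library than in any other library plotted, while 1 P-Rspo3 library (EN15d, 10.8) stands above the others for Cldn8.

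Against WT, the Apc organoids had less RNA of the pore-forming claudins Cldn15 and Cldn2 and more of the sealing claudins Cldn4 and Cldn8. Cldn3, also described as sealing, was not called, and claudin protein was not measured. Genes were called at an adjusted p under 0.05 (edgeR quasi-likelihood test on counts, Benjamini-Hochberg over all 16749 genes tested) and a log2 fold change (log2FC) beyond 1 in size. Of the 8 claudins tested, 2 were called higher (Cldn4 and Cldn8) and 2 lower (Cldn15 and Cldn2), beside 12.2% of all genes called higher and 14.1% called lower. The median log2FC of the 8 was -0.23, and that of all genes was 0.00058. FPKM ranges of WT and Apc did not overlap for 5 of the 8, beside 54.5% of all genes.

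Cldn15, the sodium pore, showed the largest difference. Its FPKM was 217, 239, 253, 192 and 188 in WT lines 1, 2, 5, 6 and NAIVE, and 27.7, 31.6, 17.5 and 17.0 in Apc lines 1, 2, 5 and 6. Every Apc library lay far below every WT library, and lines 5 and 6 were lower than lines 1 and 2. The counts gave a log2FC of -3.51 (SE 0.22, edgeR adjusted p = 3.75e-07), a change of 11.4-fold. Set against the WT library of the same line name, TMM-normalized counts per library (CPM) of Cldn15 differed by log2 values of -3.24, -3.17, -4.14 and -3.74 in lines 1, 2, 5 and 6. In bulk cultures, fewer cells of a type and less RNA per cell cannot be told apart.

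Cldn2, the other cation pore, also fell. Its FPKM was 104, 101, 84.6, 93.6 and 77.8 in the WT libraries in the same order and 31.5, 28.2, 47.2 and 38.5 in Apc. The groups did not overlap, and here lines 5 and 6 were the higher Apc libraries, the reverse of Cldn15. The log2FC was -1.63 (SE 0.14, edgeR adjusted p = 4.01e-06). Together the FPKM of both pore claudins was 310 ± 32.9 in WT and 59.8 ± 3.78 (SD, n = 4) in Apc. Cldn15 had 2.05 to 2.99 times the FPKM of Cldn2 in WT and 0.371 to 1.12 times in Apc.

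Cldn4, a sealing claudin and, with claudin-3, a receptor of Clostridium perfringens enterotoxin, rose. Its FPKM was 24.8, 35.1, 31.3, 13.5 and 16.1 in WT lines 1, 2, 5, 6 and NAIVE, and 130, 123, 150 and 223 in Apc lines 1, 2, 5 and 6. The lowest Apc library was thus well above the highest WT library, and line 6 went from the lowest WT value to the highest Apc value. The log2FC was 2.38 (SE 0.30, edgeR adjusted p = 4.88e-05), a 5.21-fold rise. Within lines 1, 2, 5 and 6 the log2 difference in CPM of Cldn4 was 2.13, 1.55, 1.90 and 3.81.

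Cldn8 rose from a much lower level. Its FPKM was 1.21, 4.65, 2.10, 3.06 and 1.27 in WT and 8.72, 7.56, 12.3 and 8.23 in Apc, in the same order of libraries. The groups did not overlap, but WT line 2 was the highest of its group, and the difference within that line was 0.41 on the log2 scale, against 2.59, 2.19 and 1.19 in lines 1, 5 and 6. The log2FC was 1.60 (SE 0.36, edgeR adjusted p = 0.00303).

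Cldn7, the most abundant claudin, was lower in Apc by less than the fold needed for a call. Its FPKM in Apc was 666, 561, 639 and 647, below the lowest WT value of 727. The log2FC was -0.65 (SE 0.078, edgeR adjusted p = 3.68e-05), and the difference within lines ran from -0.81 to -0.47. Its share of the summed claudin FPKM was 58.3% in Apc (median). The ratio of Cldn7 to Epcam, whose protein binds claudin-7, was 2.35 ± 0.18 in WT and 1.71 ± 0.18 in Apc on the FPKM scale, and these ranges did not overlap.

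The other tested claudins did not pass the threshold. Cldn3, a sealing claudin, had an FPKM of 172 ± 26.3 in WT and 183 ± 6.15 in Apc, and the counts gave a log2FC of -0.20 (SE 0.12, edgeR adjusted p = 0.18). Cldn12, which lacks the usual scaffold-binding tail, had a log2FC of -0.013 (SE 0.077, adjusted p = 0.910), and Cldn23, a claudin of differentiated surface cells, one of -0.25 (SE 0.19, adjusted p = 0.271), both from edgeR. On the log2(FPKM + 1) scale (limma) the median of all genes was shifted by 0.17 towards Apc, and there all 3 changed sign, to 0.11 for Cldn3, 0.27 for Cldn12 and 0.055 for Cldn23, so that no direction is given for them. Cldn1 had 0 to 1 and Cldn6 0 to 9 counts per Apc library, against 0 to 8 and 0 to 5 in WT.

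**Figure D2:**
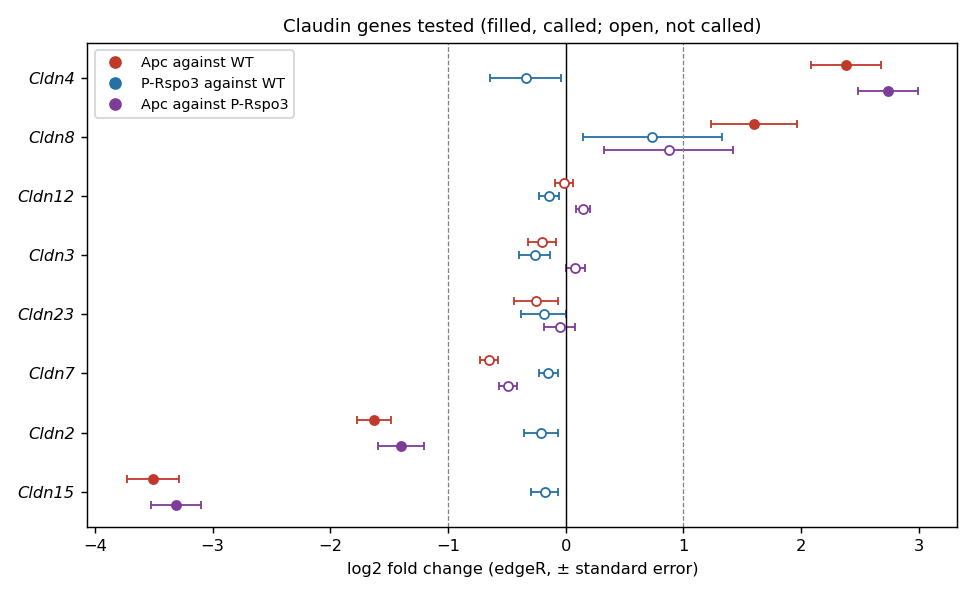
Log2 fold change (x axis, edgeR, ± standard error) of the 8 tested claudins in 3 comparisons, with filled points for called genes and dashed lines at the fold threshold of 1. Cldn15 stands at -3.51 and -3.31 and Cldn4 at 2.38 and 2.74 in the comparisons of Apc with WT and with P-Rspo3, whereas every P-Rspo3 against WT point is open.

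Between P-Rspo3 and WT organoids no claudin passed the test. None of the 8 was called, beside 0.00625% of the 15992 genes tested (1 gene, Rspo3). At an unadjusted p under 0.05 there were 2159 genes. The share of genes called rested on 1 library and on the tool. Without NAIVE it was 1.69% (166 higher and 100 lower), and DESeq2 called 55 higher and 173 lower, but in neither was a claudin called. FPKM ranges did not overlap for 0 of the 8, beside 4.13% of all genes. Log2FC values ran from -0.34 for Cldn4 (SE 0.30, edgeR adjusted p = 0.658) to 0.74 for Cldn8 (SE 0.59, adjusted p = 0.631). The median of the 8 was -0.18, and that of all genes 0.0041. Because this comparison and that of Apc with WT share the WT libraries, their values are not independent.

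Among the pore claudins, Cldn15 FPKM in P-Rspo3 was 213, 189, 195 and 198 in EN15d, EN4d, EN_M and EN_F, and the log2FC against WT was -0.18 (SE 0.11, edgeR adjusted p = 0.524). All 4 values fell within the WT range. Cldn2 FPKM was 66.8, 86.2, 105 and 63.4, with a log2FC of -0.21 (SE 0.15, adjusted p = 0.572 by edgeR). EN15d and EN_F were below the lowest WT library for Cldn2, and EN_M was just above the highest.

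Among the sealing claudins, Cldn4 FPKM was 22.8, 15.6, 14.5 and 25.2 in EN15d, EN4d, EN_M and EN_F, all inside the WT range. Cldn8 FPKM was 10.8, 2.26, 1.74 and 1.91. EN15d had more Cldn8 than 3 of the 4 Apc libraries, while the other 3 P-Rspo3 libraries lay inside the WT range, and without EN15d the log2FC of Cldn8 against WT was -0.30. EN15d also had the lowest summed FPKM of 7 enterocyte markers among the P-Rspo3 libraries (1959, against 3044 to 4980) and the highest sum of 5 crypt stem cell markers (1058, against 619 to 714). It was lowest for Alpi, Apoa4, Fabp1 and Fabp2 but not for Krt20, Sis or Lct. Among the stem cell markers it was highest for Lgr5, Olfm4, Smoc2 and Slc12a2 but not for Ascl2. Olfm4 (776.5) made up most of the stem cell sum in EN15d. The part of these markers in the result was not tested. Cldn3 and Cldn7 had log2FC values of -0.26 (SE 0.13, adjusted p = 0.413) and -0.15 (SE 0.084, adjusted p = 0.474) by edgeR.

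Apc and P-Rspo3 organoids were both grown in EN media, so their comparison holds the medium constant, although the lines differ. Of the 8 claudins, 1 was called higher in Apc (Cldn4) and 2 lower (Cldn15 and Cldn2), beside 13.4% of the 16456 genes tested called higher and 13.3% called lower. Ranges did not overlap for 6 of the 8, beside 55.6% of all genes. The median log2FC of the 8 was 0.015, and that of all genes 0.00066. Cldn15 had a log2FC of -3.31 (SE 0.21, edgeR adjusted p = 2.16e-06). That of Cldn2 was -1.40 (SE 0.20, adjusted p = 0.000240, edgeR) and that of Cldn4 was 2.74 (SE 0.25, adjusted p = 1.95e-05, edgeR).

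Cldn8 was not called between the mutant groups, at a log2FC of 0.88 (SE 0.55, edgeR adjusted p = 0.207), and this rested on 1 library. Without EN15d the log2FC was 1.92 (edgeR adjusted p = 8.07e-05). Cldn7 was again lower in Apc by less than the threshold (log2FC -0.49, SE 0.077, edgeR adjusted p = 0.000496). Cldn12 (0.14), Cldn3 (0.080) and Cldn23 (-0.050) did not pass, with edgeR adjusted p of 0.0645, 0.438 and 0.785. On the log2(FPKM + 1) scale, where all genes were shifted by 0.16, Cldn23 had the opposite sign (0.17).

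The make-up of the claudin pool differed accordingly. Summed over the 10 genes, FPKM was 1349 ± 118 in WT, 1073 ± 80.4 in Apc and 1218 ± 73.5 in P-Rspo3. The median share of Cldn15 in this sum was 2.09% in Apc, against 15.9% in WT and 16.7% in P-Rspo3. The median share of Cldn4 was 13.2% in Apc, against 1.7% in WT and 1.61% in P-Rspo3. The ratio of Cldn4 to Cldn15 FPKM was 3.89 to 13.1 in Apc, 0.0704 to 0.146 in WT and 0.0745 to 0.127 in P-Rspo3. In Apc the order by mean FPKM was Cldn7, Cldn3, Cldn4, Cldn2, Cldn12, Cldn15, Cldn23 and Cldn8, and the neighbours Cldn3 and Cldn4, Cldn12 and Cldn15, and Cldn23 and Cldn8 had overlapping ranges. In P-Rspo3 the order was that of WT except that Cldn12 stood before Cldn4, with overlapping ranges.

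**Figure D3:**
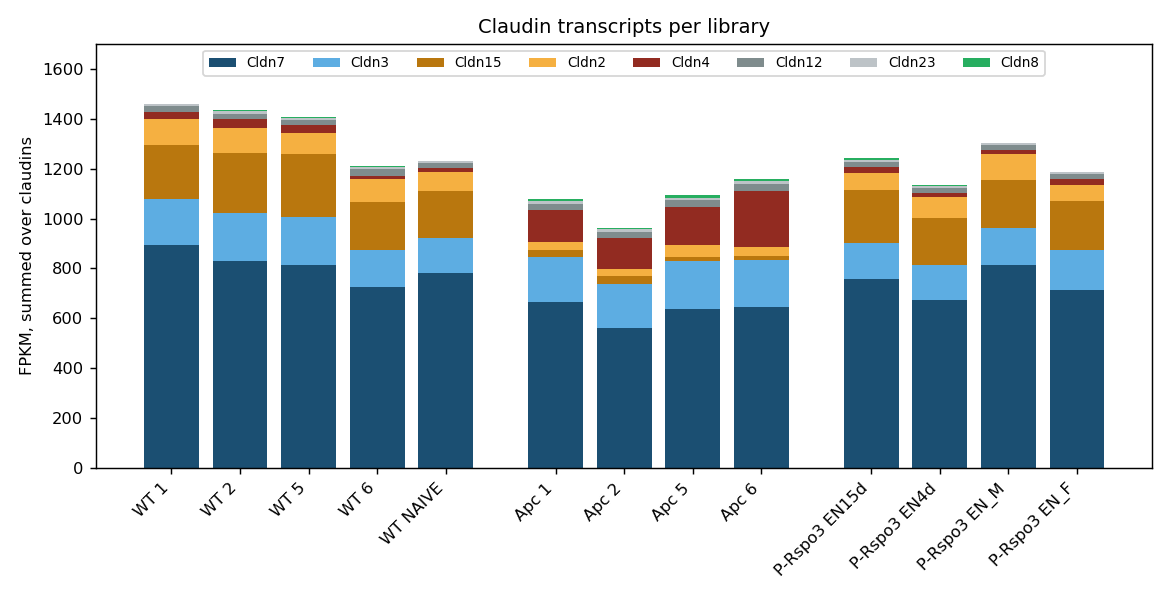
Stacked FPKM of the 8 well-detected claudins (y axis) in each of the 13 grouped libraries (x axis), where each colour is 1 gene. Cldn7 fills most of every bar, and in the 4 Apc bars the band of Cldn15 is narrow (17.0 to 31.6 FPKM) and that of Cldn4 wide (123 to 223 FPKM).

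The neighbours Cldn4 and Cldn3 can be set side by side per length. On the FPKM scale Cldn4 was 0.0924 to 0.182 times Cldn3 in WT, 0.10 to 0.16 times in P-Rspo3 and 0.694 to 1.21 times in Apc. Among the WT libraries, line 6 and NAIVE had the lowest values of both genes (146 and 140 FPKM for Cldn3).

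Markers of cell types also differed between WT and Apc. Of all genes, 12.2% were called higher and 14.1% lower in this comparison. All 7 enterocyte markers (Alpi, Apoa4, Fabp1, Fabp2, Krt20, Sis and Lct) were called lower in Apc. The summed FPKM of these 7 was 2982 to 8429 in WT, 1959 to 4980 in P-Rspo3 and 24.9 to 53.7 in Apc. All 4 goblet cell markers were called lower (summed FPKM 811 to 1198 in WT, 640 to 1208 in P-Rspo3 and 78.9 to 233 in Apc). Of the 4 Paneth cell markers, Lyz1, Defa17 and Defa24 were called lower and Mmp7 higher, and their sum was 5404 to 8607 in WT, 3031 to 6516 in P-Rspo3 and 519 to 1467 in Apc. Of the 5 crypt stem cell markers, Lgr5, Ascl2 and Smoc2 were called higher, Olfm4 lower, and Slc12a2 was not called. Their sum was 673 to 1511 in WT, 619 to 1058 in P-Rspo3 and 416 to 519 in Apc. Olfm4 made up most of this sum in WT and P-Rspo3 (mean FPKM 702.5 and 543), against 0.963 in Apc, so the sum mainly follows that gene. Of the 3 enteroendocrine markers, Chga and Chgb were called lower, with sums of 65.3 to 92.9 in WT, 55.6 to 74.5 in P-Rspo3 and 7.34 to 18.6 in Apc. No defining marker of these lists was at or under 3 counts in any whole group, and the part of cell composition in the claudin differences was not tested. Of the 6 epithelial markers, Krt18 was called higher and Vil1 lower.

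Of 21 further claudin-type genes listed, 19 were in the table and 3 were tested in Apc against WT. In that comparison 12.2% of all genes were called higher and 14.1% lower. Cldn11 was called higher, at an FPKM of at most 0.264 in any Apc library (log2FC 1.64, SE 0.47, edgeR adjusted p = 0.0117), and with the line name as a block the call was lost (1.53, adjusted p = 0.0641), as it was on the log2(FPKM + 1) scale (0.20). Cldn11 had 7 to 17 counts in Apc and 1 to 6 in WT. Its FPKM ranges overlapped, at 0.0978 to 0.264 in Apc and 0.0183 to 0.11 in WT. Cldnd1, a claudin-domain protein, had a mean FPKM of 37.1 in WT, 31.6 in Apc and 36.9 in P-Rspo3, and a log2FC against WT in Apc of -0.54 (edgeR adjusted p = 0.000148), short of the fold threshold, and Cldn20 one of 0.037. Neither of the 2 tested in the other comparisons (Cldnd1 and Cldn20) was called there. Cldn5, the endothelial claudin, did not pass the filter and is named here after its values were seen. It had 0 counts in every WT and P-Rspo3 library and 0, 1, 11 and 46 counts in Apc lines 1, 2, 5 and 6. The summed FPKM of 3 endothelial markers was 0.278 to 0.365 in WT, 0.122 to 0.474 in P-Rspo3 and 1.17 to 2.04 in Apc. Of these, Cdh5 had 217, 279, 280 and 372 counts in the Apc libraries and 0 in the WT and P-Rspo3 libraries, Pecam1 was called lower, and Kdr had at most 3 counts in every grouped library. The part of other cell types in the Cldn5 counts was not tested.

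Of 30 genes for other tight junction and polarity proteins, 27 were tested, and in Apc against WT 2 were called higher and 1 lower, beside 12.2% and 14.1% of all genes. The median log2FC of the 27 was 0.12. With the adjusted p alone, 10 were higher and 7 lower on the count scale, beside 30% and 29.0% of all genes, and FPKM ranges did not overlap for 17, beside 54.5%. Cgnl1 (paracingulin, a cytoplasmic plaque protein) had FPKM of 1.21, 2.41, 0.996, 1.74 and 1.81 in WT and 13.7, 9.01, 12.5 and 11.4 in Apc, with a log2FC of 2.65 (SE 0.26, edgeR adjusted p = 8.81e-06). Every Apc library was far above every WT library.

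Ildr1, an angulin of the points where 3 cells meet, had FPKM of 2.18, 2.82, 1.55, 2.98 and 2.93 in WT and 14.5, 10.6, 12.0 and 18.2 in Apc (log2FC 2.2, SE 0.22, edgeR adjusted p = 8.57e-06). Its FPKM in P-Rspo3 was 8.57 in EN15d, the library with high Cldn8, and 2.59 to 3.77 in the other libraries. Prkcz, an atypical protein kinase C of the polarity complex, was called lower at a log2FC of -1.03 (SE 0.079, edgeR adjusted p = 1.47e-06), close to the fold threshold, and was not called without line 5 of WT (-0.99) or of Apc (-0.98) or on the FPKM scale (-0.69 by limma).

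Short of the fold threshold, Prkci, the other atypical protein kinase C, had a log2FC of 0.78, the polarity scaffold Pard3 one of -0.66 and the adhesion protein Igsf5 one of -0.50, with edgeR adjusted p of 0.000140, 4.59e-06 and 0.000737. Occludin (Ocln) and the scaffold ZO-1 (Tjp1), named after their values were seen because they are the best-known partners of claudins, had log2FC values of 0.013 (edgeR adjusted p = 0.907) and 0.71 (edgeR adjusted p = 7.13e-05). For Ocln the scales differed, as its FPKM was 42.8 to 51.9 in WT and 53.8 to 70.6 in Apc, without overlap. In P-Rspo3 against WT none of the 27 was called, beside 0.00625% of all genes, and their median log2FC was -0.025. Between Apc and P-Rspo3, Cgnl1 (2.36) and Ildr1 (1.32) were called higher and Prkcz (-1.08) lower, with edgeR adjusted p of 1.69e-05, 0.00718 and 4.43e-05. These were 2 higher and 1 lower of the 27, beside 13.4% and 13.3% of all genes. The median of the 27 in this comparison was 0.17. The call of Prkcz was lost there without EN_F (-0.99) and on the log2(FPKM + 1) scale (-0.77).

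**Figure D4:**
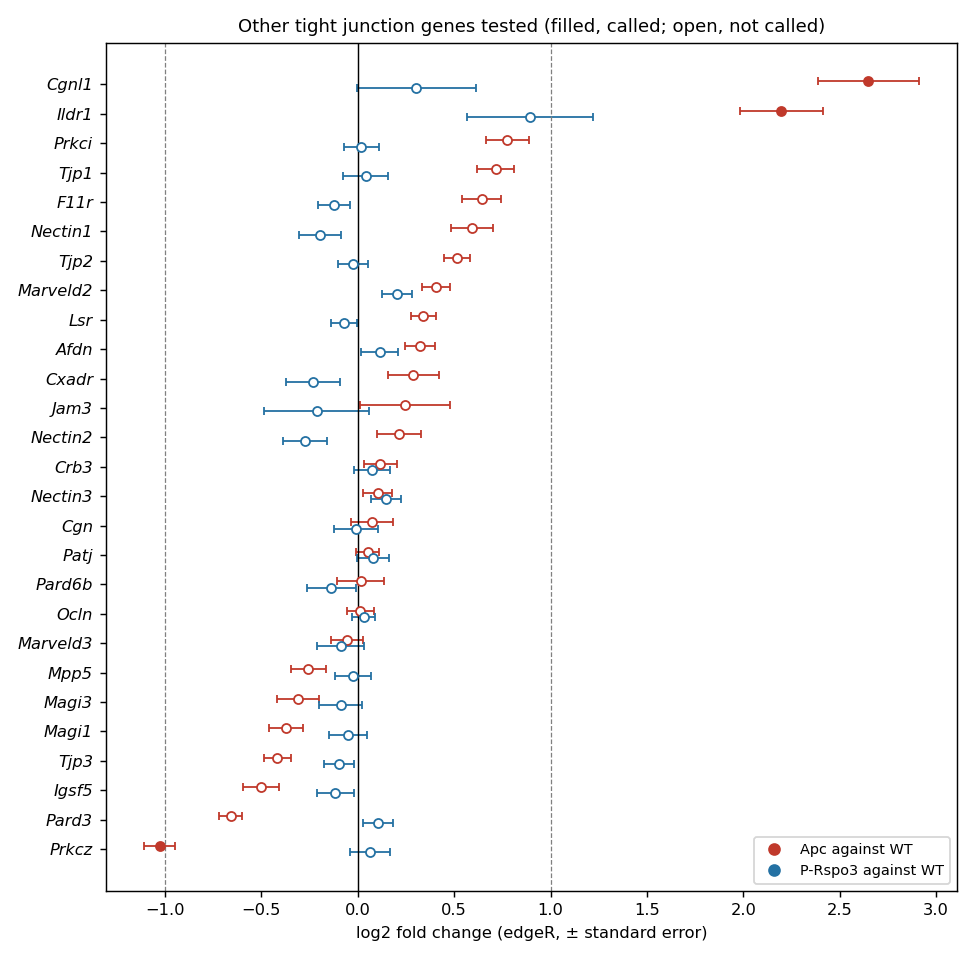
Log2 fold change (x axis, edgeR, ± standard error) of the 27 other tight junction and polarity genes tested, for Apc against WT and P-Rspo3 against WT, with filled points for called genes and dashed lines at the fold threshold of 1. Only Cgnl1 (2.65), Ildr1 (2.2) and Prkcz (-1.03) are filled, all in Apc against WT.

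EpCAM binds claudin-7, and the membrane protease matriptase (St14) can cut EpCAM. Of 7 genes around these proteins, 1 was called higher in Apc against WT and none lower, beside 12.2% and 14.1% of all genes, and the median log2FC was -0.21. The gene called was Cd9, a tetraspanin, with a log2FC of 1.29 (SE 0.14, edgeR adjusted p = 1.88e-05). Its FPKM was 82.6, 72.9, 71.3, 110 and 70.1 in WT lines 1, 2, 5, 6 and NAIVE, and 304, 227, 217 and 226 in Apc lines 1, 2, 5 and 6, so the groups did not overlap.

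Epcam itself had a log2FC of -0.18 on the count scale (SE 0.070, edgeR adjusted p = 0.0434), while its mean FPKM was 346 in WT and 369 in Apc, so that no direction is given. Spint2, another protease inhibitor, the tetraspanin Tspan8 and St14 had log2FC values of -0.22, -0.21 and 0.20, with edgeR adjusted p of 0.0104, 0.0399 and 0.0419, and mean FPKM in WT and Apc of 370 and 389, 235 and 248, and 62.3 and 83.8. No direction is given for Spint2 and Tspan8, whose counts and FPKM differ in sign. The matriptase partner Prss8 (-0.86) and the inhibitor Spint1 (-0.72) were lower by less than the fold threshold, with edgeR adjusted p of 3.72e-06 and 1.69e-05. In P-Rspo3 against WT none of the 7 tested was called (median log2FC -0.048), beside 0.00625% of all genes. Between Apc and P-Rspo3, Cd9 (log2FC 1.21, SE 0.16, edgeR adjusted p = 0.000190) was called higher and none lower, beside 13.4% and 13.3% of all genes. The median over the 7 was -0.061.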

How the data were processed

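PolyA RNA of organoids was sequenced in 15 libraries, of which 13 entered comparisons (5 WT, 4 Apc and 4 P-Rspo3). Reads had been mapped by the authors with STAR (2.4.1d, two-pass) on GRCm38, and they deposited raw counts per Ensembl gene from HTSeq 0.6.0 and FPKM values from Cufflinks 2.2.1. The annotation release is not given in the sources used here. Of 43629 genes in the count table, 43437 had FPKM and 42462 were matched to a symbol (GENCODE). Counts were tested with edgeR 4.0.16 (R 4.3.3; TMM, glmQLFit and glmQLFTest at defaults) in a separate fit per comparison, over genes with FPKM of at least 0.1 in 4 libraries. The standard error is the log2FC divided by the root of the F statistic. FPKM were used for levels and in limma 3.58.1 with a pseudocount of 1 or 0.1. The fits were tested on simulated counts. The members and lists were chosen with earlier results of these data known. All 10 claudins were named, and of each other list the called genes and at most the 3 largest changes per direction.

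WT and Apc libraries with the same line name were taken as paired by their titles. After each group's mean was removed, the correlation between paired libraries over genes was 0.00402 to 0.193 (4 pairs), with a median of -0.0294 over the 12 other pairs. Alternatives were DESeq2 1.42.0, DESeq2 size factors, other FPKM filters, 1 fit of all groups, limma on FPKM, a line block and leaving out each library. Total counts of the grouped libraries ran from 28902729 to 35528495. 1 gene named in the planned lists was left out of them and is not reported here.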

Additional observations from a re-analysis of the deposited data

Results flagged for a closer look

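Cldn8 FPKM in P-Rspo3 EN15d was 10.8 while the other 3 libraries of the group were at 1.74 to 2.26, a gap large against the range of the group. Cldn23 FPKM in Apc line 6 was 11, against 8.52 to 8.74 in the other 3 Apc libraries. Chance alone would pick out about a share of 0.05 of the 27 groups examined in this way.

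NAIVE_F, a library in no group, had a Cldn2 FPKM of 110, above the WT range of 77.8 to 104, and a Cldn8 FPKM of 4.77, above the WT range of 1.21 to 4.65. As its title and genotype label point to different groups, these stand as single values. Its Rspo3 FPKM was 8.54.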

How the results depend on the processing

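The same numbers of claudins were called in Apc against WT (2 higher and 2 lower) and in P-Rspo3 against WT (0 and 0) under every alternative run at the same thresholds, leave-one-out fits included. With the line name as a replicate block, 1995 genes were called higher and 2310 lower in Apc against WT, against 2048 and 2364 without it. The claudin calls under the block were Cldn4 (log2FC 2.30), Cldn8 (1.55), Cldn15 (-3.59) and Cldn2 (-1.70), and of the junction genes refitted Cldn11 alone lost its call. In Apc against P-Rspo3, 2 claudins in place of 1 were called higher by limma on log2(FPKM + 1) and on log2(FPKM + 0.1), where Cldn8 stood at 1.27 and 1.55. Leaving out 1 library gave 1 to 2, the higher number without EN15d. The cause was not tested.

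Signs changed for genes that were not called. In Apc against WT these were Cldn12 (0.0061 in 1 fit of all groups, 0.27 and 0.28 with limma at a pseudocount of 1 and 0.1, and -0.051 to 0.019 leaving out 1 library), Cldn23 (0.055 and 0.063 with limma) and Cldn3 (0.11 and 0.11). In Apc against P-Rspo3, Cldn23 was 0.17 and 0.19 with limma and -0.14 to 0.041 leaving out 1 library. In P-Rspo3 against WT, leaving out 1 library gave -0.30 to 1.1 for Cldn8 and -0.041 to 0.21 for Cd9, both below 0 without EN15d, and -0.032 to 0.15 for Prkcz, below 0 without EN_F.

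Over all genes, P-Rspo3 against WT had 1 call higher and 0 lower with edgeR, 55 and 173 with DESeq2, 2 and 11 with no filter, 11 and 63 in 1 fit of all groups, 3 and 4 or 2 and 1 with limma, and 166 and 100 without NAIVE. With limma on log2(FPKM + 1), 1418 genes were higher and 1132 lower in Apc against WT, and 1430 and 1124 in Apc against P-Rspo3. The share of higher calls moved from 46.4% to 55.6% and from 50.3% to 56.0%. An FPKM minimum of 1 left 1184 and 1264 higher, and the adjusted p alone gave 5028 and 4864, and 4719 and 4557. For Cldn1 and Cldn6, with at most 9 counts in any grouped library, no difference was detectable at this depth.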

Other observations

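In LIPO, the other library in no group, FPKM was 196 for Cldn15, 84.4 for Cldn2, 9.70 for Cldn4, 1.28 for Cldn8, 758 for Cldn7 and 133 for Cldn3. Rspo3 had 0 counts in LIPO. In NAIVE_F the values were 222 for Cldn15, 9.72 for Cldn4, 748 for Cldn7 and 133 for Cldn3. The Cldn4 values of both were below the lowest WT library (13.5), and their summed FPKM of 7 enterocyte markers was 5484 and 4738.

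Cldn17 had 5, 2, 2 and 1 counts in Apc lines 1, 2, 5 and 6, 0 in every WT library and 1 in a single P-Rspo3 library, too few to test.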
